A study of Homo sapiens with 6 samples.

Results

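IGF2BP1 is an RNA-binding protein that holds many of its target messages in stable ribonucleoprotein particles (mRNPs). The genes described here encode 10 RNA-binding proteins that have been found with IGF2BP1 in such particles or that act on the same transcripts: YBX1, SYNCRIP, HNRNPU, DHX9, ELAVL1, MATR3, PABPC1, STAU1, FMR1 and G3BP1. The rule names them by symbol and uses no measured value, though it was written with earlier results of these data known, and 10 of the 62700 rows of the count table carry these symbols. The cells were SAS, an established human line from a squamous carcinoma of the tongue. All cells had the same wild-type (WT) genotype; control libraries came from cells given a control siRNA (siC) and knockdown libraries from cells given an siRNA against IGF2BP1 (siIGF2BP1). Each group had 3 libraries of poly(A)-selected RNA, and levels are given as CPM, the read count of a gene scaled to library size. A single line was used, and neither the siRNA sequence, nor the time after transfection, nor the origin of the replicates (separate cultures or 1 culture) is stated. The tests therefore see only how far these particular libraries scatter, part of which may be technical.

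IGF2BP1 binds messages through RRM and KH domains and, in the cytoplasm, shields them from decay. YBX1, SYNCRIP, HNRNPU and DHX9 are known to join it on the coding-region stability determinant of MYC mRNA, an element in the coding sequence through which the message is kept from decay. PABPC1 coats the poly(A) tail, ELAVL1 binds AU-rich elements, and STAU1, FMR1 and G3BP1 act in localisation, translational control and stress granules. The comparison asks whether the messages of these partners changed when IGF2BP1 was lowered.

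None of the 9 partners that could be tested was called by edgeR's quasi-likelihood test at an adjusted p under 0.05, where 12.9% of all 14649 tested genes were called (6.66% lower and 6.27% higher). At an unadjusted p under 0.05 there was 1 of 9, G3BP1, where 25.7% of all tested genes passed. G3BP1 also was the single member called by DESeq2 (lower), which called 1212 of all 14649 genes lower and 1034 higher. The limma-voom fit called 0 members, beside 968 genes lower and 866 higher. The median log2 fold change, knockdown over control, was 0.05 over these 9 genes and 0.03 over all tested genes, and the 9 values ran from -0.36 for G3BP1 to 0.60 for FMR1. The tenth partner, MATR3, was not tested, because its row held almost no reads. These are levels in bulk RNA, in which fewer cells with a message and less of it per cell cannot be told apart.

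The targeted gene followed its labels. IGF2BP1 (ENSG00000159217; GRCh38 chromosome 17, 48997412 to 49055650, plus strand) stood at 8.11, 9.60 and 11.2 CPM in controls 1 to 3 and at 1.59, 1.09 and 0.806 CPM in knockdowns 1 to 3. It fell by 3.07 on the log2 scale (SE 0.30; edgeR, adjusted p = 4.56e-06). Library totals ran from 17918496 to 26675064 reads, so 3 reads correspond to between 0.112 and 0.167 CPM. All 10 squamous epithelial markers were detected; their summed level was 31323 to 33670 CPM in controls and 13069 to 14050 CPM after knockdown, a difference that lay mainly in KRT7, KRT8 and KRT18, keratins of simple epithelia, and in KRT5. The means of the squamous and basal genes KRT17 (2306 and 2284 CPM) and TP63 (26.4 and 26.2 CPM) and of EPCAM (62.4 and 67.5 CPM) lay close together in controls and after knockdown. The squamous and basal keratins KRT5 (3584 and 477 CPM) and KRT6A (184 and 45.3 CPM) had lower means after knockdown. KRT14 (1980 and 1471 CPM) and CDH1 (138 and 45.4 CPM) did as well. The leukocyte genes PTPRC and CD3E and the fibroblast collagen gene COL3A1 were at 0 in all libraries, and the summed leukocyte markers, all of it CD14, reached at most 18.4 CPM. The part of the epithelial marker difference in the results below was not tested.

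Start-site windows from RefSeq (GRCh38.p14; 250 bases before and 50 after the start) were matched for 8 of the 10 partners; ELAVL1 and PABPC1 had no entry. The stretches shown belong to YBX1, the partner with the narrowest interval, DHX9, a helicase of the same MYC complex, and G3BP1, the partner nearest to a call. They were cut to bases outside annotated exons. Capitals mark CCAAT, the box bound by NF-Y, and GGGCGG, the GC box bound by SP1, each on either strand (ATTGG and CCGCCC on the other).
YBX1, chr1:42682268-42682417, plus strand: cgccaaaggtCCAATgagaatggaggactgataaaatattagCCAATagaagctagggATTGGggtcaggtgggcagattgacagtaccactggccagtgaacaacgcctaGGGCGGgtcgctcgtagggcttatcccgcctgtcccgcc
DHX9, chr1:182839197-182839346, plus strand: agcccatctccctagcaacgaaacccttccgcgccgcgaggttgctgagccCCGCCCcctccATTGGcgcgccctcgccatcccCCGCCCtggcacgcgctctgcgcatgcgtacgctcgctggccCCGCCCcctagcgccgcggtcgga
G3BP1, chr5:151771804-151771909, plus strand: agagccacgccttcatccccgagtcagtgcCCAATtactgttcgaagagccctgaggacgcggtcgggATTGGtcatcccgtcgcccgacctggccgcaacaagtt
The YBX1 and DHX9 stretches end 1 base before the RefSeq start and that of G3BP1 ends 45 bases before it. By the GENCODE annotation the G3BP1 gene begins further upstream, at 151771045, so its stretch lies inside the gene and outside its exons. The 8 matched partners have 10 windows in all. CCAAT on either strand was found in 4 of these 10 full windows (1 each of YBX1, DHX9, HNRNPU and G3BP1) and in 34.6% of all 35116 windows. GGGCGG was in 8 of the 10 windows, from 7 of the 8 partners, the exception being G3BP1, and in 45.0% of all windows. TATAAA was in none of the partners' windows and in 11.5% of all. The E-box CACGTG was in 2 of the 10 windows (SYNCRIP and FMR1) and in 7.3% of all. The ETS-type motif CTTCCGG was in 2 of the 10 (STAU1 and FMR1) and in 10.3% of all. All were searched on both strands, with overlaps between motifs allowed, and a match describes the letters and not a bound site.

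The partners with the highest mRNA levels package the body and the tail of messages. YBX1 (ENSG00000065978; chromosome 1, 42682427 to 42702349, plus strand), a cold shock domain protein that coats mRNA, had 1244, 1326 and 1250 CPM in controls and 1276, 1105 and 1209 CPM after knockdown. The groups overlapped, with control 2 the highest and knockdown 2 the lowest library. On the log2 scale YBX1 differed by -0.09 (SE 0.10; adjusted p = 0.633), and its 95% interval of -0.30 to 0.12 spans 0.81 to 1.09 in fold. YBX1 has 10 processed copies in the table by symbol, of which 3 held reads; they took between 1.96% and 2.29% of the reads of YBX1 and its copies together, so its value is uncertain to the extent that reads were shared out among them. PABPC1 (ENSG00000070756; chromosome 8, 100685816 to 100722809, minus strand), the cytoplasmic poly(A)-binding protein, had 724, 722 and 1163 CPM in controls and 1248, 1500 and 797 CPM after knockdown. Here control 3, knockdown 1 and knockdown 2 were high and controls 1 and 2 and knockdown 3 were low, so the groups overlapped. PABPC1 had a log2 difference of 0.44 (SE 0.27; adjusted p = 0.380), and its interval, -0.20 to 1.09, reaches 2.12 in fold. Without knockdown 3 it was 0.66 (adjusted p = 0.0334), and without knockdown 2 it was 0.20 (adjusted p = 0.768). Of 13 PABPC1 copies 1 held reads, at most 0.159% of the total.

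**Figure D1:**
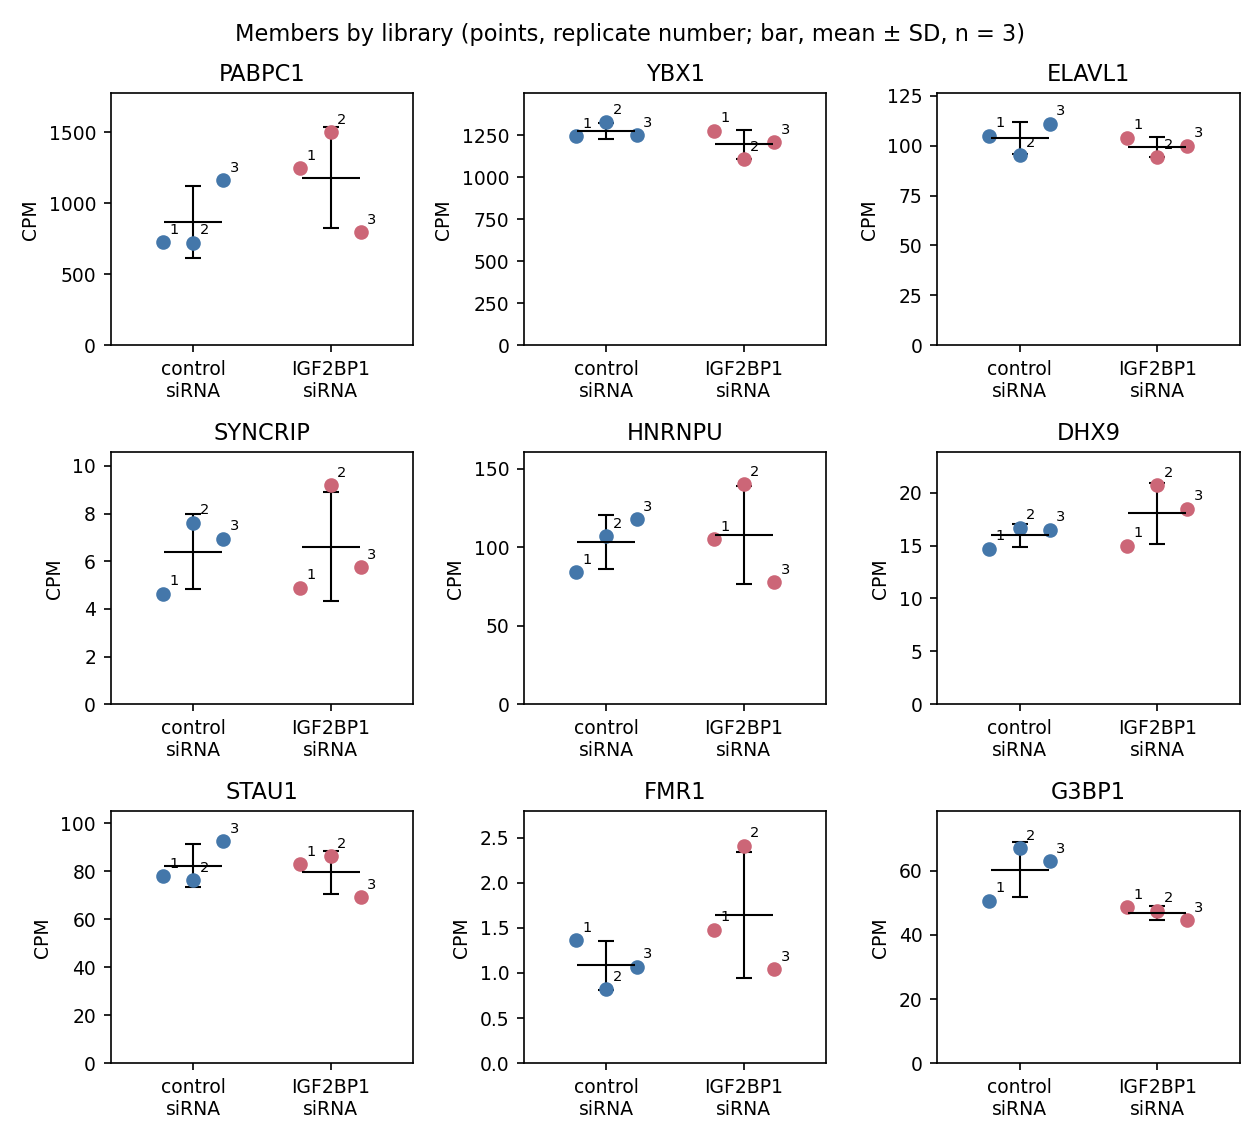
Level in CPM (vertical axis, linear from 0) of the 9 tested partners in control siRNA and IGF2BP1 siRNA libraries; points are libraries with their replicate number, and bars give the mean ± SD of 3 libraries. G3BP1 is the only panel in which the groups do not overlap; PABPC1 is split into 3 high and 3 low libraries across the groups.

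Among the partners known from the MYC mRNA complex, HNRNPU, SYNCRIP and DHX9 varied between libraries more than between groups. HNRNPU (ENSG00000153187; chromosome 1, 244840638 to 244864560, minus strand), an hnRNP and nuclear scaffold protein, had 84.2, 107 and 118 CPM in controls and 105, 140 and 77.8 CPM after knockdown. Knockdowns 2 and 3 were the highest and the lowest of all 6 libraries. HNRNPU differed by 0.06 in log2 units (SE 0.19; adjusted p = 0.892; interval -0.37 to 0.49), a value that turned to -0.20 without knockdown 2, to -0.10 without control 1 and to -0.0045 with GC-corrected values. COX20 on the opposite strand shares 15.6% of the HNRNPU exon bases, and the strand setting of the counting is not given, so this value is uncertain. SYNCRIP (ENSG00000135316; chromosome 6, 85607785 to 85643792, minus strand), an hnRNP-like protein with RRM domains, rested on 106, 177 and 181 reads in controls and 89, 210 and 150 reads after knockdown. That was 4.64, 7.62 and 6.95 CPM against 4.89, 9.19 and 5.76 CPM, with replicate 1 the lowest in both groups. For SYNCRIP the log2 difference was 0.05 (SE 0.28; adjusted p = 0.941), and the interval of -0.54 to 0.64 reaches 1.56 in fold; the value was -0.29 without knockdown 2 and -0.16 without control 1. DHX9 (ENSG00000135829; chromosome 1, 182839369 to 182887751, plus strand), an RNA helicase that unwinds duplexes, had 14.7, 16.7 and 16.5 CPM in controls and 15.0, 20.7 and 18.5 CPM after knockdown. Knockdowns 2 and 3 were above all controls and knockdown 1 was within their range. DHX9 differed by 0.18 in log2 units (SE 0.17; adjusted p = 0.572; interval -0.18 to 0.54), and by 0.04 without knockdown 2, 0.09 without control 1 and 0.29 without knockdown 1.

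ELAVL1, which binds single-stranded elements, and STAU1, which binds duplexes, differed little between groups. ELAVL1 (ENSG00000066044; chromosome 19, 7958579 to 8005659, minus strand), the HuR protein that stabilises messages with AU-rich elements, had 105, 95.1 and 111 CPM in controls and 104, 94.2 and 100 CPM after knockdown. The groups overlapped almost fully. The difference for ELAVL1 was -0.06 in log2 units (SE 0.11; adjusted p = 0.781; interval -0.29 to 0.17), and 0.02 with no scaling factor. An opposite-strand gene shares 7.59% of its exon bases. STAU1 (ENSG00000124214; chromosome 20, 49113339 to 49188367, minus strand), which binds double-stranded stems and takes part in localisation and in Staufen-mediated decay, had 77.9, 76.3 and 92.4 CPM in controls and 83.0, 86.2 and 69.0 CPM after knockdown. Control 3 was the highest library and knockdown 3 the lowest. STAU1 differed by -0.05 in log2 units (SE 0.12; adjusted p = 0.846; interval -0.31 to 0.21), a value that was 0.04 with no scaling factor or without knockdown 3 and 0.03 without control 3. For these 2 genes the intervals hold a fold between 0.81 and 1.16.

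G3BP1 was the partner nearest to a call. G3BP1 (ENSG00000145907; chromosome 5, 151771045 to 151812785, plus strand), the protein whose RNA-driven condensation builds stress granules, had 50.6, 67.1 and 63.0 CPM in controls and 48.7, 47.5 and 44.5 CPM after knockdown. Each knockdown library was below each control library, control 1 by a small margin, a pattern that 15.1% of all tested genes showed in this direction and 15.5% in the other (30.7% in either). The means were 60.2 ± 8.57 and 46.9 ± 2.17 CPM (SD, n = 3 each), and the log2 difference was -0.36 (SE 0.13; interval -0.63 to -0.09; edgeR, unadjusted p = 0.0118 and adjusted p = 0.0751). The adjusted p fell below 0.05 with DESeq2 (0.0441), with no count filter (0.0495), with GC-corrected values (0.0380) and without control 1 (-0.50, adjusted p = 0.0265), and it reached 0.251 without control 2.

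FMR1 was the least abundant of the tested partners. FMR1 (ENSG00000102081; chromosome X, 147911951 to 147951125, plus strand), the translational regulator lost in fragile X syndrome, rested on 31, 19 and 28 reads in controls and 27, 55 and 27 reads after knockdown. In CPM this was 1.36, 0.818 and 1.07 against 1.48, 2.41 and 1.04, so knockdown 2 stood high and knockdowns 1 and 3 lay at or near the control levels. The log2 difference of 0.60 (SE 0.45; adjusted p = 0.456) was the highest of the partners and had the widest interval, -0.36 to 1.55. Without knockdown 2 it was 0.17. The antisense gene FMR1-AS1 had 0 reads in all libraries.

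**Figure D2:**
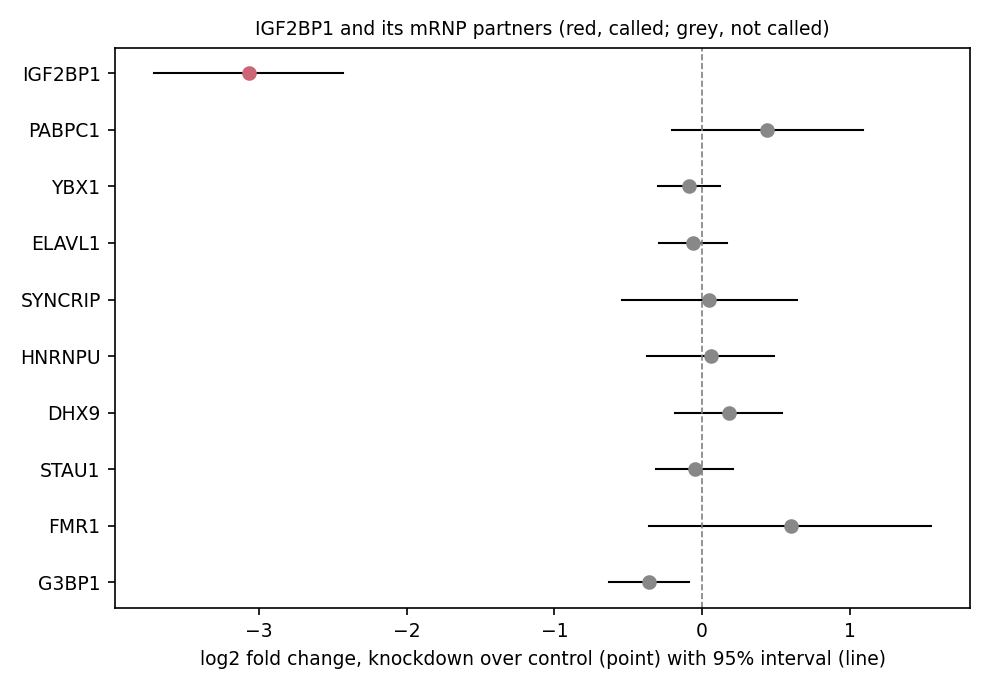
Log2 fold change, knockdown over control (horizontal axis), with its 95% interval from the edgeR fit, for IGF2BP1 and the 9 tested partners. IGF2BP1 lies at -3.07; the interval of G3BP1, -0.63 to -0.09, is the only one of a partner that does not reach 0, and its adjusted p was 0.0751.

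MATR3, a nuclear matrix protein that binds RNA and DNA, could not be measured. Its row (ENSG00000015479; chromosome 5, 139293648 to 139331677, plus strand) held 1, 1 and 3 reads in controls and 6, 5 and 10 after knockdown. A second gene model, which GENCODE also names MATR3 (ENSG00000280987; 139273752 to 139331671, same strand), held 0 reads in 5 libraries and 1 read in knockdown 2. In GENCODE release 29 the second model covers 96.7% of the 4843 bases of the principal transcript of the first. How reads that fall in both models were counted is not given in the sources used here. So few reads give no level of MATR3, and no fold change is reported. Of 3 processed copies 0 held reads.

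Levels were compared between genes per length, as CPM per kilobase of the deposited gene length. The order was YBX1 (375 ± 13.4 in controls and 353 ± 25.3 after knockdown; SD, n = 3 each), PABPC1 (91.1 ± 26.6 and 124 ± 37.3), STAU1 (20.1 ± 2.17 and 19.4 ± 2.23), ELAVL1 (14.9 ± 1.13 and 14.3 ± 0.706), HNRNPU, DHX9, G3BP1, SYNCRIP and FMR1 (0.105 ± 0.0263 and 0.160 ± 0.0679). Thus the mRNA levels of the message-coating YBX1 and the tail-binding PABPC1 stood well above those of the other tested partners. HNRNPU with DHX9 and DHX9 with G3BP1 overlapped in their ranges over the 6 libraries; the other neighbours in the order did not. The deposited length of each of these partners exceeds that of its principal GENCODE transcript. For HNRNPU the lengths were 22512 and 6827 bases, for SYNCRIP 10452 and 3023, and for PABPC1 9546 and 3485. They were 3395 and 1514 bases for YBX1, and 20038 and 10240 for G3BP1. Per kilobase of principal transcript, control means were 841 ± 30.0 CPM for YBX1 and 250 ± 73.0 CPM for PABPC1 (SD, n = 3 each). On the principal transcript lengths G3BP1 came before DHX9, with overlapping ranges, and ELAVL1 overlapped HNRNPU; no other place changed.

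Knockdown 2 was the highest library for 5 of the 9 partners: PABPC1, HNRNPU, SYNCRIP, DHX9 and FMR1. For YBX1, ELAVL1 and G3BP1 it lay below the gene's mean over all libraries, by log2 deviations of -0.16, -0.11 and -0.16 (-0.12, -0.21 and -0.51 with the GC trend removed). Genes were also ranked by the GC content of their principal transcript, which was known for 97.3% of tested genes, and cut into 5 classes of nearly equal size. In the lowest class (31.8% to 42.8% GC) the median deviation from a gene's mean over all libraries, on the log2 CPM scale, was 0.33 in knockdown 2, -0.26 in control 1 and -0.18 in knockdown 1. In the highest class (59.8% to 85.5%) it was -0.06, 0.07 and 0.14 in the same libraries. The transcripts of HNRNPU (41.6%), FMR1 (38.0%) and G3BP1 (38.3%) are in the lowest class, those of DHX9, SYNCRIP, ELAVL1 and STAU1 in the next, and those of YBX1 and PABPC1 in the middle one. The part of this GC pattern in the partners' values was measured only by removing it. With each library's GC trend removed, the SD within groups, in log2 units, went from 0.35 to 0.25 for HNRNPU, from 0.42 to 0.30 for SYNCRIP and from 0.18 to 0.09 for DHX9. It stayed at 0.43 for PABPC1 and rose from 0.09 to 0.16 for ELAVL1, from 0.16 to 0.22 for G3BP1 and from 0.47 to 0.51 for FMR1.

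**Figure D3:**
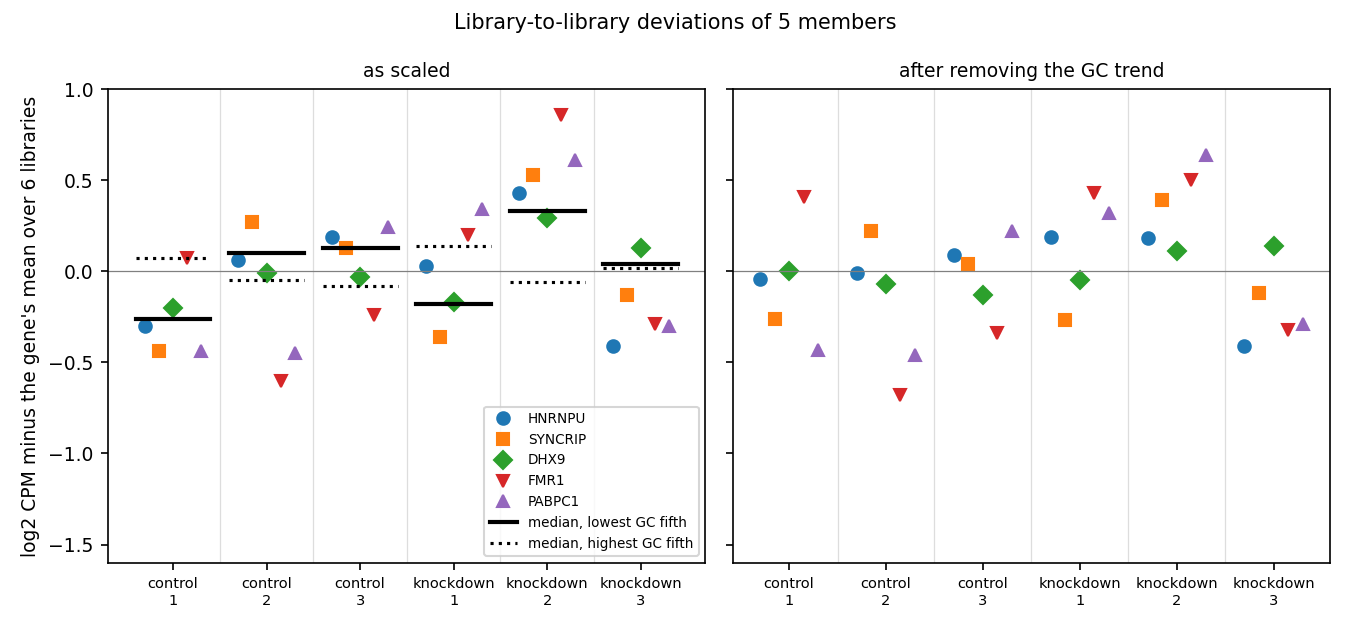
Log2 CPM of 5 partners minus each gene's own mean over the 6 libraries (vertical axis), by library, as scaled (left) and after removal of each library's trend with transcript GC (right); solid and dotted bars are medians of the lowest and highest of 5 GC classes of genes. In knockdown 2 the lowest class stands at 0.33. These 5 partners were chosen because knockdown 2 was their highest library, so values above 0 there, as scaled, follow from that choice. With the trend removed these values were 0.18 (from 0.43) for HNRNPU, 0.11 (from 0.29) for DHX9 and 0.39 (from 0.53) for SYNCRIP. FMR1 stood at 0.50 (from 0.86) and PABPC1 at 0.64 (from 0.61). Knockdown 1 was then highest for HNRNPU (0.19) and knockdown 3 for DHX9 (0.14).

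Each partner with a close paralog was set against it as a log2 ratio of CPM (pseudocount 0.5) within each library, in 8 pairs. A two-sided exact permutation test of 3 against 3 libraries cannot give less than p = 0.1, so no pair could pass a threshold of 0.05. FMR1 against FXR2, another fragile X family member, was the pair whose groups did not overlap: the ratio was -6.81, -7.26 and -6.86 in controls and -6.57, -5.67 and -6.76 after knockdown. The difference was 0.65 (exact p = 0.1, adjusted over the pairs p = 0.533), and it was 0.31 without knockdown 2. G3BP1 against G3BP2 differed by -0.12 (exact p = 0.900), with G3BP2 at 7.37 ± 0.821 CPM in controls and 6.31 ± 1.67 after knockdown (SD, n = 3 each). SYNCRIP against HNRNPR differed by -0.43 (exact p = 0.200), HNRNPU against HNRNPUL1 by 0.38 (exact p = 0.400), and STAU1 against STAU2 by 0.44 (exact p = 0.200). STAU2 held 14 to 35 reads a library (0.613 to 1.53 CPM) and FMR1 held 19 to 55 (0.818 to 2.41 CPM), levels near the pseudocount. As a difference of edgeR log2 fold changes, without this pseudocount, STAU1 against STAU2 was 0.64. By the same measure FMR1 was at 0.84 against FXR2 and at 0.37 against FXR1. The other 3 pairs, YBX1 with YBX3, PABPC1 with PABPC4 and FMR1 with FXR1, differed by 0.06, 0.24 and 0.24. With a library left out, HNRNPU against HNRNPUL1 ranged from 0.10 (without knockdown 2) to 0.56, STAU1 against STAU2 from 0.25 (without knockdown 2) to 0.68, PABPC1 against PABPC4 from 0.05 (without knockdown 2) to 0.45, SYNCRIP against HNRNPR from -0.57 to -0.28 (without control 2), and FMR1 against FXR1 from 0.12 (without control 2 or control 3) to 0.49 (without control 1).

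Other RNA-binding proteins around these particles were read from 5 lists, 94 genes in all, of which 91 were tested: 1 was higher, 7 were lower and 83 were not called, or 8.79% called beside 12.9% of all tested genes, so the lists as a whole did not exceed the background. The median log2 difference was -0.24 over the paralogs, -0.13 over the other hnRNP proteins, 0.05 over the stress granule and P-body genes, 0.05 over the stability and decay genes and -0.10 over the nuclear partners, beside 0.03 over all tested genes. In the list of other hnRNP proteins 4 of 19 fell and 0 rose, beside 6.66% lower and 6.27% higher of all tested genes (0 higher also with DESeq2 and limma-voom, and 0 at an unadjusted p under 0.05 with each of the 3 tools). HNRNPM, a splicing regulator, went from 188, 170 and 184 CPM in controls to 76.2, 81.2 and 78.5 CPM after knockdown, with no overlap (log2 fold change -1.20, SE 0.10, adjusted p = 1.04e-06). HNRNPF, which binds G-rich tracts near splice sites, went from 303, 301 and 277 to 158, 137 and 157 CPM (-0.96, SE 0.10, adjusted p = 1.04e-05). HNRNPA0, an AU-rich element binder, fell from 262 ± 9.47 to 173 ± 12.7 CPM (SD, n = 3 each; -0.60, adjusted p = 7.11e-04). These 3 falls kept their call in every alternative fit that was run. HNRNPD, the AU-rich decay factor AUF1, had -0.33 (adjusted p = 0.0473) and was no longer called when any control or knockdown 3 was left out (adjusted p 0.0845 to 0.203), with no scaling factor (0.116) or with GC-corrected values (0.0710). PTBP1, the most abundant gene of this list at 899 ± 44.8 and 781 ± 128 CPM, was not called (-0.20, adjusted p = 0.302).

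The partners' own paralogs had 2 of 13 tested genes lower and 0 higher, a called share of 15.4% that is near the 12.9% of all tested genes (0 higher also with DESeq2 and limma-voom; at an unadjusted p under 0.05, 0 higher with edgeR and limma-voom and 1 with DESeq2). PABPC1L, a poly(A)-binding protein known from the germline, fell from 28.9 ± 1.29 to 19.6 ± 1.45 CPM (SD, n = 3 each; -0.56, adjusted p = 0.0149), a call that needed knockdown 3 (adjusted p = 0.0647 without it). HNRNPUL1, a relative of HNRNPU, had -0.34 (adjusted p = 0.0487), and it lost the call when any library except knockdown 1 was left out (adjusted p from 0.0564 to 0.170) and with no scaling factor (0.0976). PABPC4, the most abundant paralog at 258 ± 25.5 and 294 ± 24.1 CPM, was not called (0.19, adjusted p = 0.304).

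Among 21 genes of mRNA stability and decay 1 fell and 1 rose with edgeR, or 9.52%, below the 12.9% of all tested genes. DESeq2 and limma-voom each called 1 higher and 2 lower, the added gene being ZFP36 (-0.50, edgeR adjusted p = 0.0614). KHSRP, a KH domain protein that recruits decay enzymes to AU-rich messages and the most abundant gene of this list, fell from 579 ± 53.5 to 419 ± 52.6 CPM (SD, n = 3 each; -0.47, SE 0.11, adjusted p = 0.0111; adjusted p = 0.0581 without knockdown 3). PAIP2, which represses translation by displacing PABPC1 from the poly(A) tail, rose from 16.0 ± 2.64 to 23.8 ± 4.26 CPM (0.58, adjusted p = 0.0455). The call of PAIP2 was lost when any library except knockdown 1 was left out (adjusted p from 0.0664 to 0.214), and an opposite-strand gene shares 21.0% of its exon bases. Of 18 stress granule and P-body genes, the neighbours of G3BP1 in condensates, 0 were called by edgeR, DESeq2 or limma-voom, with 2 at an unadjusted p under 0.05, a level that 25.7% of all tested genes passed with edgeR. ATXN2L, the most abundant of them, had 205 ± 23.7 CPM in controls and 267 ± 49.8 after knockdown (0.38, adjusted p = 0.0641). It was called higher with no scaling factor (adjusted p = 0.0217), no count filter (0.0107), the stricter filter (0.0361), the replicate block (0.00822) or GC-corrected values (0.0230) and without knockdown 2 (0.0315), while its adjusted p reached 0.264 without control 2, and 12.5% of its exon bases are shared with opposite-strand genes. Of 20 nuclear and double-stranded RNA partners 0 were called by edgeR, DESeq2 or limma-voom, with 4 at an unadjusted p under 0.05 with edgeR, beside the same 25.7%. With GC-corrected values 3 genes of this list were called lower, beside 1364 lower and 1074 higher of all 14256 genes tested so. With the replicate block 4 were called lower and 1 higher, beside 1273 lower and 1158 higher of all 14649 tested genes.

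**Figure D4:**
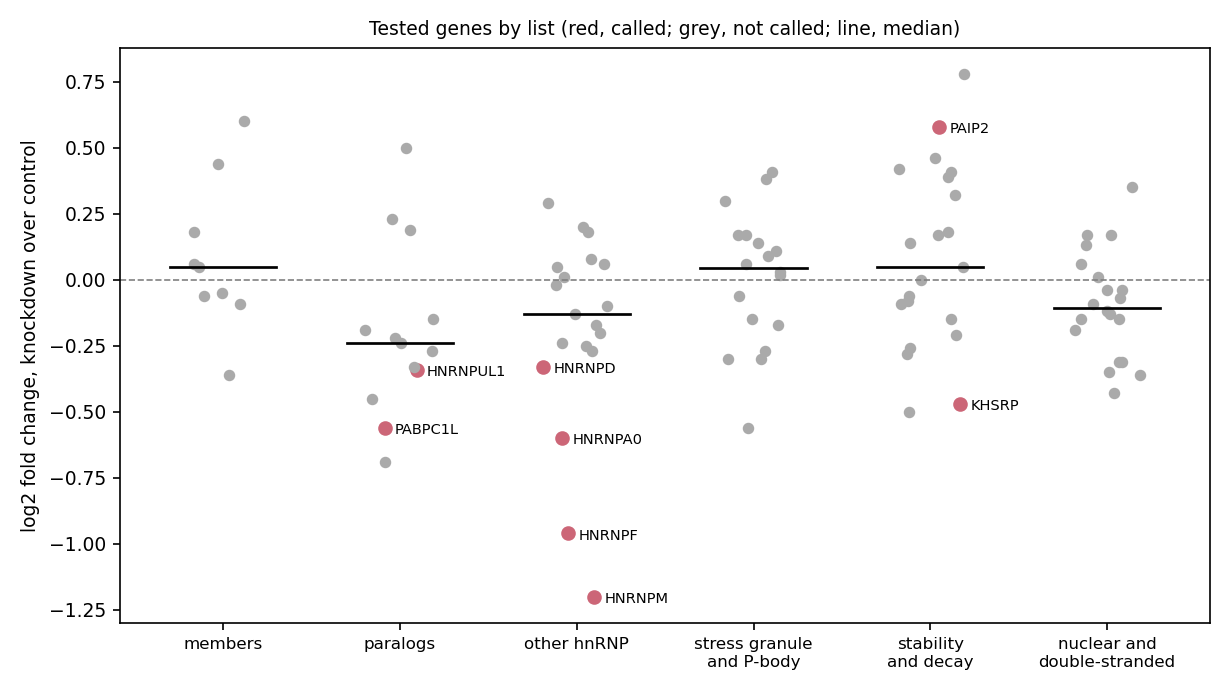
Log2 fold change, knockdown over control (vertical axis), of each tested gene in the set of partners and in the 5 lists around them; red points are called, grey points are not, and lines are medians. The 9 partners hold no red point, and HNRNPM (-1.20) and HNRNPF (-0.96) are the lowest of the named genes.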

How the data were processed

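Raw read counts of each gene in the 6 libraries, together with gene lengths in bases, were taken from the authors' deposited table. Per the submitters' processing notes, cutadapt 2.8, HISAT2 2.1.0, SAMtools 1.10, featureCounts 2.0.0 and hg38 were used; the sources used here give neither settings nor annotation, while the labels' protocols describe strand-marked (dUTP) libraries. Columns were matched by library name, and 0 were left unused. Genes kept by filterByExpr (minimum count 10, total 15) went into a robust quasi-likelihood fit and test (glmQLFit, glmQLFTest; edgeR 4.0.16, R 4.3.3) with TMM scaling and Benjamini-Hochberg adjustment over all tested genes, and were called at an adjusted p under 0.05. SE is the coefficient over the square root of the quasi-F. The fit was tested on simulated data. The members and lists were chosen with earlier results of these data known. Named genes are the members, their paralogs, and each list's called genes and most abundant gene; a gene that this rule names is not reported here. Coordinates, overlaps and GC come from GENCODE 29 (GRCh38). Alternatives were RLE or no scaling, other filters, a replicate block, DESeq2 1.42.0, limma-voom (limma 3.58.1), leaving out libraries and, chosen after seeing the data, GC-corrected offsets. Counts of replicates differed by far more than sampling noise (chi-square per degree of freedom 14.6 to 36.2).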

Additional observations from a re-analysis of the deposited data

How the results depend on the processing

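IGF2BP1 kept its fall and its call in each of the 14 alternatives run (-3.35 to -2.86 with a library left out). The number of higher genes was 918, and 529 to 828 with a library left out (585 without control 1, 529 without control 2, 587 without knockdown 3); higher genes made up 48.5% of all calls. That share was 63.2% without scaling factors, when the all-gene median was 0.12 in place of 0.03. In the 5 lists 1 gene was higher, and 2 with no scaling factor, with no count filter, with the stricter filter or with GC-corrected offsets. With a library left out 0 to 1 were higher (0 without control 1, control 2, control 3 or knockdown 3). Lower list genes numbered 7, 13 with GC-corrected offsets and 3 to 14 with a library left out (14 without knockdown 1, 3 without knockdown 3). With the replicate number as a block 4 list genes were higher and 14 lower, beside 1158 higher and 1273 lower of all tested genes. The numbers were not taken to pair the libraries, since deviations from the group means correlated at 0.18, 0.09 and -0.07 for numbers 1 to 3. The block called 0 of the 9 members.

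Members' ranges with a library left out were -0.29 to 0.22 for SYNCRIP, -0.20 to 0.24 for HNRNPU, -0.14 to 0.04 for STAU1, 0.20 to 0.70 for PABPC1 -0.50 to -0.29 for G3BP1, 0.04 to 0.29 for DHX9 and 0.17 to 0.84 for FMR1. SYNCRIP was reversed without control 1 (-0.16) and knockdown 2 (-0.29), HNRNPU without control 1 (-0.10) and knockdown 2 (-0.20) and with GC-corrected offsets (-0.0045), STAU1 without control 3 (0.03) and knockdown 3 (0.04) and, like ELAVL1 (0.02), with no scaling factor (0.04). PABPC1 was called without knockdown 3 (0.66). G3BP1 was called with no count filter (-0.37), DESeq2 (-0.38) and GC-corrected offsets (-0.44) and without control 1 (-0.50). FXR1 ranged from -0.19 (without knockdown 2) to 0.40 with a library left out. The pair YBX1/YBX3 ranged from -0.02 to 0.19 and G3BP1/G3BP2 from -0.26 to 0.07 with a library left out. For these shifts the cause was not tested, beyond the smaller number of libraries where one is left out. FMR1 rests on 19 to 55 reads a library, and the reads of MATR3 give no level.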
